A study of Mus musculus with 158 samples.

Results

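Pool 19 is 1 of 19 pools of short hairpin RNAs (shRNAs) that were carried through the same experiment in PDA530 Met cells, a mouse pancreatic ductal adenocarcinoma line taken from a liver metastasis. It was followed here through all its libraries, 10 of the 158 in the series, chosen by the pool number in the labels. The pool held 52 targeting hairpins against 23 genes, out of 1000 targeting hairpins in all pools, and 8 control hairpins that every pool shared. Of these genes, 2 had 1 hairpin in the pool, 14 had 2, 6 had 3 and 1 had 4.

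All groups were PDA530 Met cells infected with the virus pool at a multiplicity of infection of 0.3 and kept in puromycin at 3 µg/ml for 4 days. The day 0 group was 3 cell pellets of the selected pool (A, B and D). The lung group was 3 samples (A, B and D), each the combined tumours of a single mouse harvested 28 days after the cells were injected into the tail vein; the strain of the mice is not given in the sources used here. The culture group was 4 samples of cells grown in vitro over those 28 days: cultures A, B and C hold pools 18 and 19 together, and culture D holds pool 19 alone. Nothing in the labels says whether the pellets and cultures of a group came from separate infections, so p-values measure the spread between these samples, which may in part be technical. All of it is a single cell line in a single host site, and tumour cells enter the lung by injection into the blood rather than by leaving a primary tumour.

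An shRNA is processed into a small RNA that guides the silencing machinery to a matching messenger RNA. Each targeting hairpin is designed to lower 1 gene, to a degree that can differ between hairpins of the same gene. Effects of a hairpin on other genes were not measured here. The hairpin stays in the genome of the infected cell and its descendants, and sequencing it from genomic DNA counts those descendants. A hairpin whose share grows between the start and the end marks cells that left more descendants. Comparing lung tumours with culture sets the outcome in the animal beside growth on plastic. Lung shares cover every step from injection to harvest, so growth alone is not isolated. Shares sum to a constant, so a hairpin that lost share and a hairpin overtaken by others cannot be told apart, and the knockdown of the target genes was not measured in these files. Agreement between different hairpins of the same gene is the usual guide to whether a change belongs to the gene.

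The libraries held 7036172 to 7321440 reads at day 0, 6028966 to 8754623 in culture and 5516267 to 7879835 in lungs, with 1925934 or more of them on pool 19 targeting hairpins in every library. Pool 19 hairpins made up 68.8 to 74.0% of the reads in the 7 libraries of pool 19 alone and 27.8 to 29.8% in the 3 mixed cultures, where pool 18 made up 52.5 to 54.9%. All 52 hairpins had reads in every day 0 library, and 1 of them, TRCN0000444671 against Slc16a3, had none in lungs B and D or in culture C. Day 0 libraries resembled each other most, with Pearson r of 0.979 to 0.994 over the 52 hairpins, against 0.853 to 0.873 between lungs. Culture D stood apart from the mixed cultures: r was 0.858 to 0.903 between D and each of them and 0.919 to 0.947 among them. Its share lay above all 3 mixed cultures for 24 hairpins, below all 3 for 10 and within their range for 18. Each called change that involves culture is therefore followed by its value without D, and changes called only without D are named. Whether mixing with pool 18 accounts for the gap was not tested, since D is the only culture of pool 19 alone.

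Each group had its own leading hairpin, and lung samples held reads of 51 or 52 of the pool's 52 targeting hairpins. At day 0 the most abundant hairpin was TRCN0000314234 against Cad, the enzyme that carries out the opening steps of pyrimidine synthesis, with 17.5, 17.8 and 14.8% of the pool's targeting reads. In every culture it was TRCN0000249475 against BC004004, with 20.9, 23.3 and 24% in the mixed cultures and 13.6% in D. In every lung sample it was TRCN0000251359 against Pxdn, peroxidasin, a secreted peroxidase that cross-links basement membrane collagen, with 13.2, 14.1 and 18.7%. The 5 leading hairpins of a library together held 44.5 to 50.3% of the reads at day 0, 64.5 to 73.4% in the mixed cultures, 52.7% in D and 51.1 to 55.8% in lungs. The effective number of hairpins, which is the number of equally abundant hairpins that would give the same Shannon entropy, was 20.6, 20.2 and 22.8 at day 0. It was 12.55, 14.98 and 14.53 in the mixed cultures, 19.95 in D, and 19.7, 17.9 and 17.0 in lungs. Lungs and day 0 did not overlap (18.21 ± 1.36 against 21.21 ± 1.40, SD, n = 3 each), but the exact permutation test gave p = 0.1, the smallest that 3 against 3 allows. Culture was lowest at 15.50 ± 3.15 (SD, n = 4), with exact permutation p = 0.0571 against day 0 and 0.229 against lungs, where 0.0286 is the smallest p possible. Without D the log2 difference in effective number went from -0.47 to -0.60 for culture against day 0 and from 0.25 to 0.38 for lungs against culture, with exact permutation p = 0.1 for each, again the smallest possible. Across the other pools with values the median effective number was 32.78 at day 0 (range 24.00 to 41.98), 22 in culture and 22.73 in lungs, so pool 19 began below the least diverse of them.

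**Figure D1:**
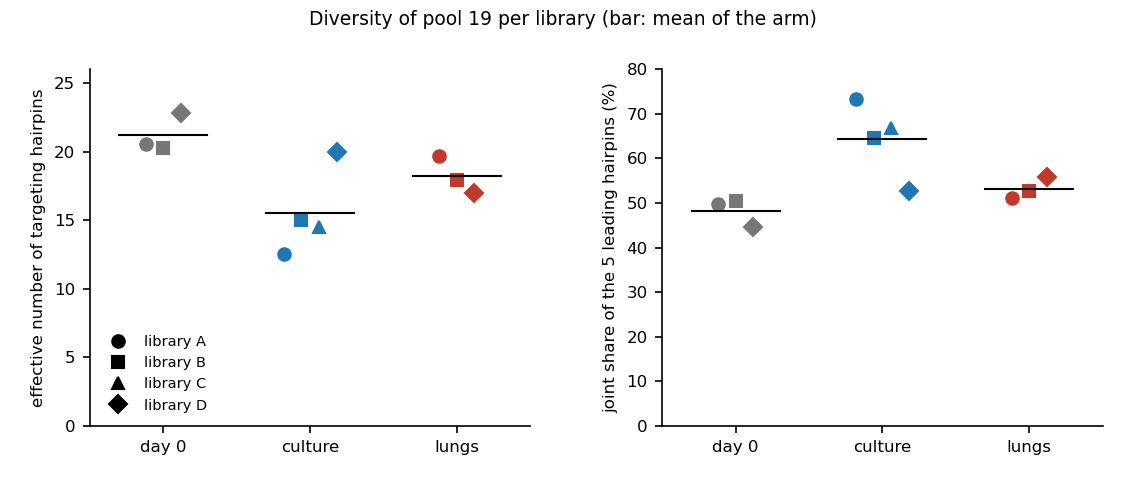
Effective number of pool 19 targeting hairpins (left) and joint share in percent of the 5 leading hairpins (right) in each day 0, culture and lung library, marked by library letter, with the mean of the group as a bar. The 3 mixed cultures lie at 12.55 to 14.98 effective hairpins, while culture D (19.95) lies close to day 0.

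In the tests below, reads of the pool's targeting hairpins were scaled to a fixed total per library (CPM) with trimmed-mean (TMM) factors, and log2(CPM + 1) was fitted with limma. A hairpin is called when its Benjamini-Hochberg adjusted p, over all hairpins of all pools, is under 0.05. Changes are log2 values on that scale and shares are percent of the pool's targeting reads, unscaled. Alternative fits used edgeR or DESeq2 on the reads, other scalings (plain shares, DESeq2 size factors, the deposited values), or all 3 groups in 1 fit, and these and any library left out are named beside a hairpin where they ended its call. A further fit, with a term for the library letter, also ended calls; it is not named beside each hairpin, since the letters are not known to pair samples, and its counts are given with the limits in the closing section. In lungs against day 0, 15 of the 52 hairpins were called, or 28.8%, against 33.8% of the 891 hairpins of all pools tested. Of these, 8 were higher and 7 lower, where 14.7% of all hairpins tested were called higher and 19.1% lower. The pool's share of calls was thus near that of the series. On unscaled shares, all lungs lay below all day 0 libraries for 19 of the 52 hairpins and above them for 12. All cultures lay below day 0 for 22 and above it for 6, and all lungs lay above all cultures for 11 and below them for 6. These positions are given for pool 19 only, without a count over all pools. With plain shares the median change was -0.39 in lungs and -0.56 in culture against day 0. The larger counts below day 0 are therefore not read as a result, here or where they recur for single genes. With TMM the median change of the pool in lungs against day 0 was -0.07 against -0.13 over all pools, and the median size of change was 1.20 against 0.90. The balance of directions depended on the scaling: the share of calls that were higher was 53.3% with TMM, 37.5% with plain shares and 40% with the deposited values. With edgeR's test it was 72.7%, with 8 calls higher as before and 3 lower. Plain shares moved the median of the pool's hairpins to -0.39.

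Leaving out each library in turn gave 8 to 21 calls, and 8 of the 15 hairpins were called every time and in every alternative fit. These were both Arhgap21 hairpins described below and 1 hairpin each of Dach2, Ftsjd2, Pcdh18, Pxdn, Zdhhc20 and Zim2. The other 7 (BC004004, Slc16a3, Ankrd17, Cnot2, Nfkbiz, Utp20 and the second Pcdh18 hairpin) lost their call without at least 1 library. Counts fell most without a day 0 library, to 10 without A, 9 without B and 8 without D, and rose to 21 without lung D.

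**Figure D2:**
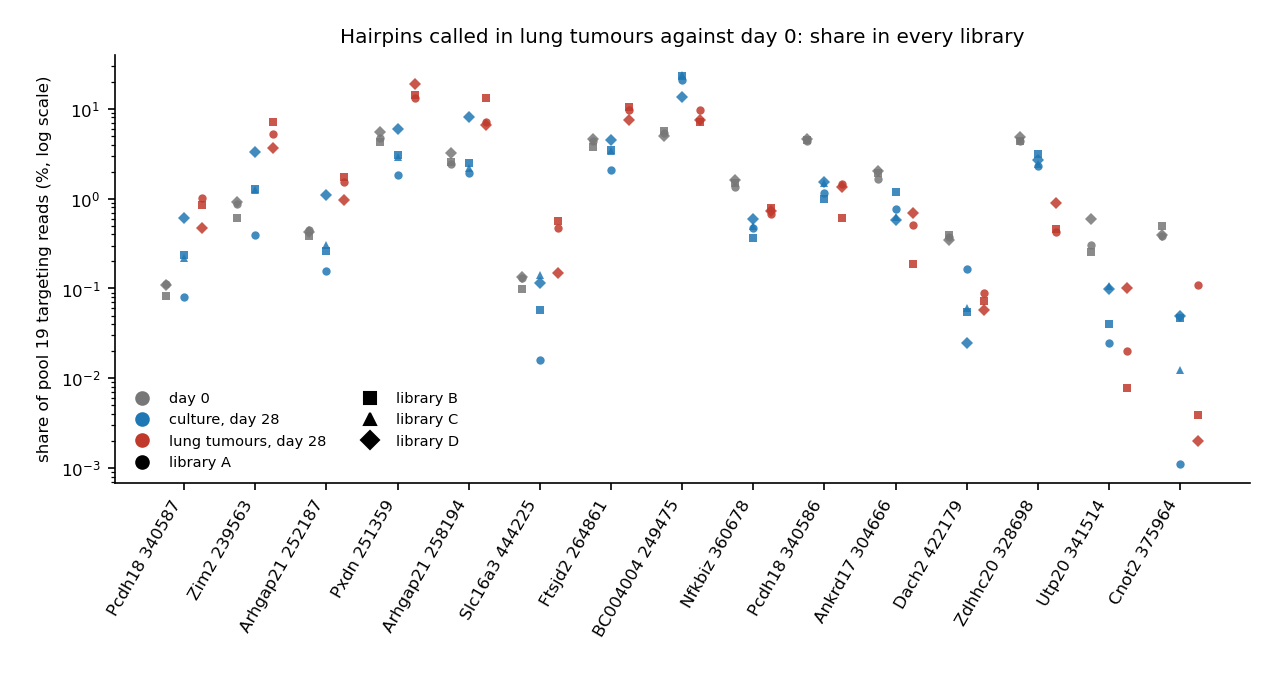
Share of pool 19 targeting reads (percent, log scale) of the 15 hairpins called in lungs against day 0, in each day 0 (grey), culture (blue) and lung (red) library, ordered from the largest rise to the largest fall and named by gene and the end of the clone number. For 6 of the 8 hairpins that rose in lungs, culture D lies above the 3 mixed cultures.

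Genes of adhesion, matrix and the cytoskeleton (4 genes, 9 hairpins) had 4 hairpins called higher in lungs against day 0 and 1 called lower, where 14.7% and 19.1% of all hairpins tested were, with a median change of 1.41. In culture against day 0 the same 9 hairpins had 1 call higher and 3 lower, with a median of -0.04, where 28.8% of all hairpins tested were called higher and 31.9% lower. In lungs against culture 3 were called higher and none lower, where 11.6% and 13.3% of all hairpins tested were. Without culture D there were 1 call higher and 3 lower in culture, with a median of -0.28, and 5 higher and none lower in lungs against culture. Groups of genes by role are counted here and were not tested.

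The leading Pxdn hairpin, TRCN0000251359, started at 4.72, 4.29 and 5.46% in day 0 libraries A, B and D. It stood at 1.83, 3.06 and 2.87% in mixed cultures A, B and C, at 6.02% in culture D and at 13.2, 14.1 and 18.7% in lungs A, B and D. Every lung sample lay above every culture and every day 0 library. The change was 1.98 (SE 0.24, adjusted p = 0.00231) against day 0 and 1.99 (SE 0.42, adjusted p = 0.00341, 2.32 without D) against culture, while culture against day 0 gave -0.04 (SE 0.29, adjusted p = 0.915). It was 1 of the 2 hairpins whose call in lungs against culture was kept without each library and in every alternative fit. The second Pxdn hairpin in the pool, TRCN0000251358, went another way. It had 0.149, 0.119 and 0.215% at day 0, 0.0283, 0.00919 and 0.00497% in the mixed cultures and 0.0445% in D, and fell in culture with -2.75 (SE 0.86, adjusted p = 0.019, -3.18 without D). That call was lost without day 0 library D or culture B (adjusted p up to 0.0613), and when all 3 groups shared 1 fit. In lungs it ranged from 0.00295% in B to 0.273% in D, so that its lungs overlapped day 0, and its change of -1.56 (SE 1.71) was not called.

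Arhgap21, a GTPase-activating protein, was the 1 gene of the pool with 2 hairpins called the same way in lungs against day 0. TRCN0000252187 had 0.45, 0.382 and 0.422% at day 0 and 1.54, 1.74 and 0.972% in lungs, a change of 2.04 (SE 0.25, adjusted p = 0.00226). TRCN0000258194 had 2.42, 2.58 and 3.21% at day 0 and 7.11, 13.2 and 6.57% in lungs, a change of 1.97 (SE 0.25, adjusted p = 0.0027). For both, all lungs lay above all day 0 libraries, and the mean share was 3.39 and 3.27 times that of day 0. Culture D lay closer to the lungs than the mixed cultures did: TRCN0000258194 was at 1.93, 2.51 and 2.17% in the mixed cultures and 8.14% in D, inside the range of the lungs, and TRCN0000252187 at 0.156, 0.263 and 0.308% and 1.1%. The comparison of lungs with culture was called for TRCN0000252187, 1.71 (SE 0.50, adjusted p = 0.0237, 2.29 without D), but not without lung B or culture B (adjusted p up to 0.136) nor with edgeR or DESeq2. For TRCN0000258194 it was not called with all cultures, 1.20 (SE 0.47, adjusted p = 0.0806), but was called without D (1.69, adjusted p = 0.00879). The third hairpin, TRCN0000252186, overlapped between day 0 and lungs (1.59, 1.65 and 1.74% and 1.94, 1.13 and 1.03%, a change of -0.02, SE 0.30) and fell in culture. Its shares there were 0.336, 0.529 and 0.398% in the mixed cultures and 0.692% in D, below every day 0 library, and its change of -1.25 (SE 0.23, adjusted p = 0.00113, -1.36 without D) was kept without each library and in every alternative. Its lungs were above all cultures, 1.19 (SE 0.37, adjusted p = 0.0321, 1.40 without D), a call lost without lung A, lung B or any of the mixed cultures (adjusted p up to 0.128).

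Pcdh18, a protocadherin of the cell surface, was the 1 gene called in both directions in lungs against day 0. TRCN0000340587 had 0.112, 0.0828 and 0.109% at day 0 and 1.01, 0.854 and 0.465% in lungs, 7.67 times the day 0 mean share and a change of 3.2 (SE 0.37, adjusted p = 0.00192). TRCN0000340586 had 4.37, 4.49 and 4.63% at day 0 and 1.44, 0.609 and 1.36% in lungs, a change of -1.76 (SE 0.43, adjusted p = 0.0248) that was lost without day 0 library B or D (adjusted p up to 0.0665). Neither hairpin's lungs overlapped its day 0 libraries. In culture both moved the same way as in lungs. TRCN0000340587 was at 0.0798, 0.234 and 0.217% in the mixed cultures and 0.61% in D, with 1.72 (SE 0.57, adjusted p = 0.0243, 1.32 without D), and TRCN0000340586 at 1.17, 0.993 and 1.5% in the mixed cultures and 1.54% in D, with -1.24 (SE 0.24, adjusted p = 0.00153, -1.25 without D). The first of these calls was lost without day 0 library B or D or culture B (adjusted p up to 0.0731), and with plain shares or the deposited values. In lungs against culture neither was called with all cultures, with 1.44 (SE 0.56, adjusted p = 0.081) and -0.56 (SE 0.44, adjusted p = 0.37), but TRCN0000340587 was called higher without D (1.94, adjusted p = 0.0147). Pcdhb6, a clustered protocadherin, had no call. For TRCN0000427699 all lungs (1.32, 0.46 and 0.538%) lay above all day 0 libraries (0.36, 0.289 and 0.327%), with 1.41 (SE 0.48, adjusted p = 0.0659). TRCN0000423575 was at or below 0.00391% in all 10 libraries and had -1.0 (SE 1.27, adjusted p = 0.582).

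Among the 3 genes of transcription (6 hairpins), 1 hairpin was called higher and 2 lower in lungs against day 0, where 14.7% and 19.1% of all hairpins tested were. TRCN0000239563 against Zim2, an imprinted zinc finger gene, had the lowest p of the pool in lungs against day 0. Its share was 0.874, 0.606 and 0.906% at day 0, 0.397, 1.28 and 1.24% in the mixed cultures, 3.31% in D and 5.18, 7.05 and 3.63% in lungs. The lungs lay above all other libraries, though lung D (3.63%) was close to culture D, and the mean lung share was 6.65 times that of day 0. The change was 3.02 (SE 0.27, adjusted p = 0.000847) against day 0 and 1.80 (SE 0.52, adjusted p = 0.0233, 2.30 without D) against culture; the second call was lost without lung B or culture A (adjusted p up to 0.141). The other Zim2 hairpin in the pool, TRCN0000239565, lay below day 0 in all lungs (0.0637, 0.0202 and 0.0707% against 0.241, 0.202 and 0.235%), but its change of -2.0 (SE 0.64, adjusted p = 0.0576) was not called.

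Dach2 encodes a dachshund family transcription cofactor. Its TRCN0000422179 had 0.377, 0.398 and 0.348% at day 0, 0.165, 0.0546 and 0.0601% in the mixed cultures, 0.0246% in D and 0.0898, 0.0718 and 0.0579% in lungs. Lungs and cultures all lay below all day 0 libraries and overlapped each other. The change was -2.05 (SE 0.34, adjusted p = 0.00608) in lungs and -2.06 (SE 0.69, adjusted p = 0.0276, -1.55 without D) in culture, of which the culture call was lost without any 1 day 0 library, without culture B (adjusted p up to 0.0716) and with edgeR. The second hairpin, TRCN0000423706, gave 0.74 (SE 0.49) in lungs and 0.68 (SE 0.64) in culture, neither called. Nfkbiz, a nuclear regulator of NF-kappaB target genes, had 2 hairpins that moved apart in culture. TRCN0000360677 went from 0.452, 0.346 and 0.426% at day 0 to 0.804, 0.974 and 1.11% in the mixed cultures and 1.93% in D, 2.06 (SE 0.28, adjusted p = 0.000151, 1.88 without D). TRCN0000360678 went from 1.35, 1.51 and 1.59% to 0.468, 0.367 and 0.494% and 0.6%, -1.07 (SE 0.26, adjusted p = 0.00566, -1.10 without D). All cultures were beyond all day 0 libraries for both, in opposite directions; the deposited values ended the call of the first. In lungs the second was also lower, at 0.666, 0.785 and 0.723% with -0.71 (SE 0.21, adjusted p = 0.0458); this smallest of the lung falls was lost without any 1 day 0 library or without lung A or D (adjusted p up to 0.142) and with edgeR, DESeq2, DESeq2 size factors or 1 fit of all groups. The first was at 0.638, 0.56 and 0.452% in lungs, not called against day 0 (0.75, SE 0.28, adjusted p = 0.0863) and lower than culture with -1.35 (SE 0.37, adjusted p = 0.0167, -1.08 without D). That last call was lost without culture C, culture D or lung B (adjusted p up to 0.147), and with DESeq2, plain shares, DESeq2 size factors and the deposited values.

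**Figure D3:**
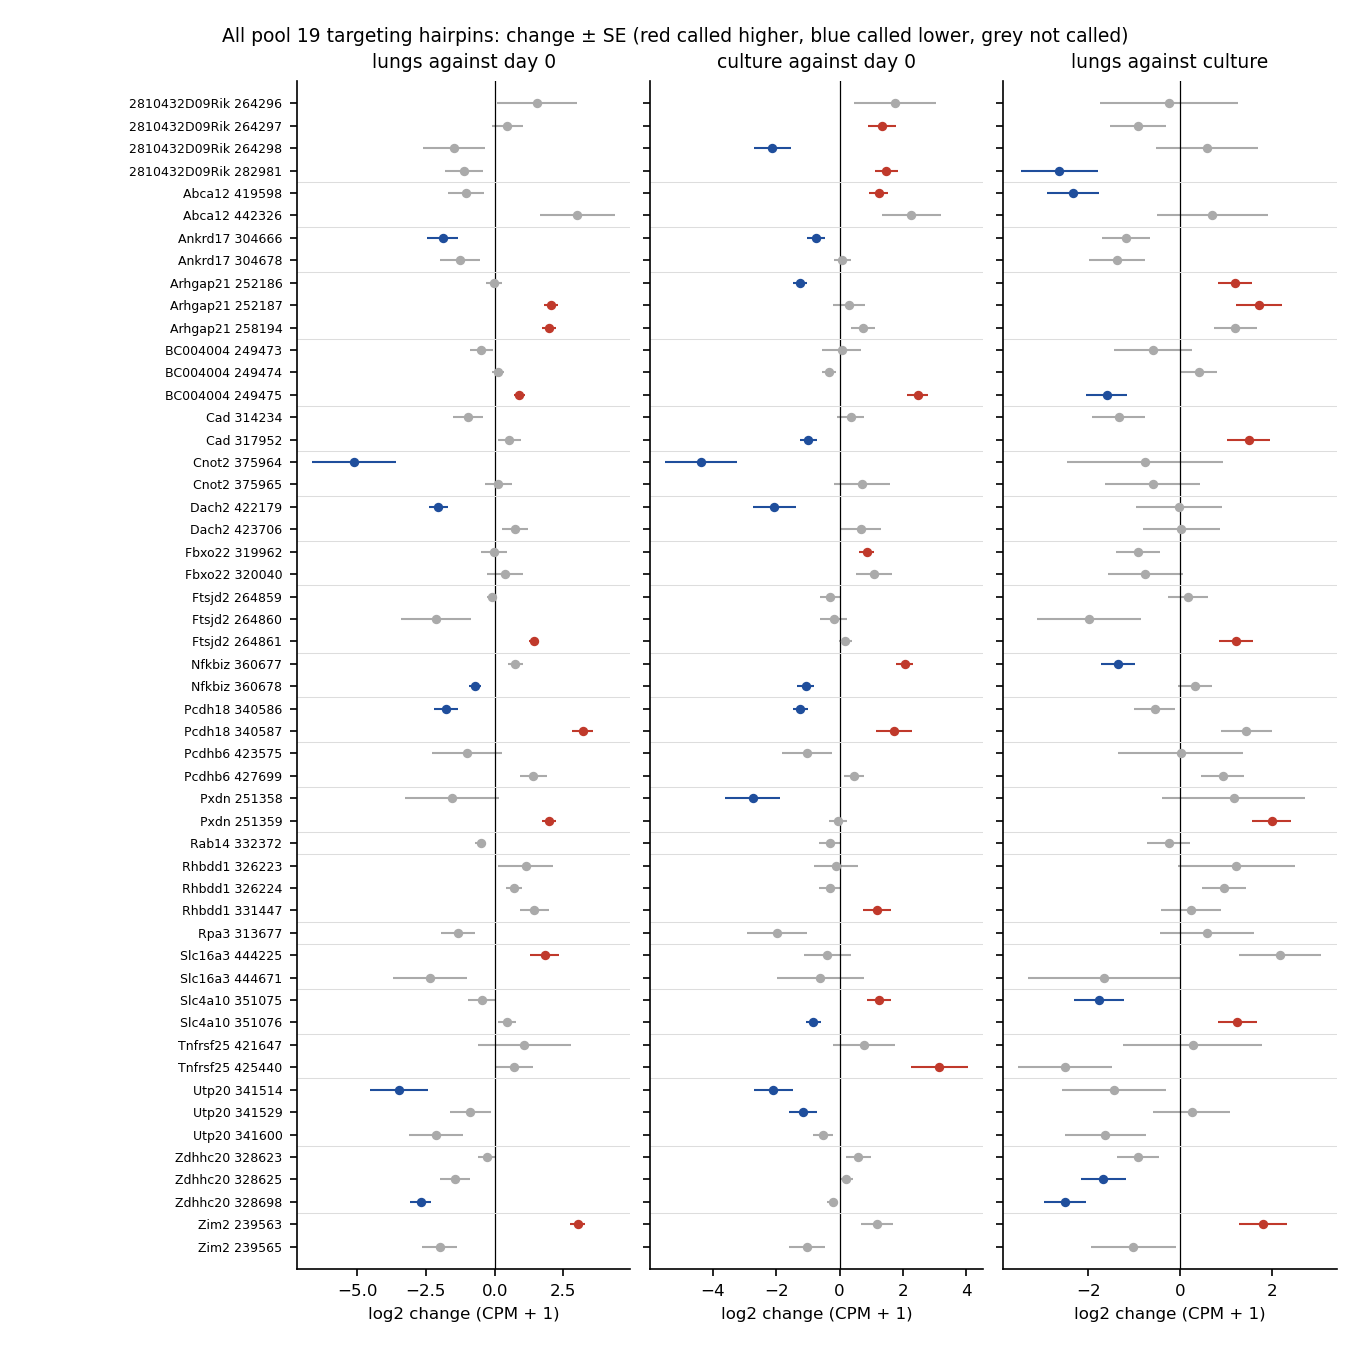
log2 change with its SE (bars) of all 52 targeting hairpins of pool 19 in lungs against day 0, culture against day 0 and lungs against culture, on a separate log2 scale in each panel, with hairpins ordered by gene and lines between genes. Red marks calls that were higher, blue calls that were lower and grey hairpins not called; the panels share libraries, so they are not independent.

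Genes that act on RNA and the ribosome (4 genes, 12 hairpins) had 1 hairpin called higher and 2 lower in lungs against day 0, with a median change of -1.0, and 2 higher and 4 lower in culture, with a median of -0.25, or 3 and 3 without culture D, with a median of -0.08. Over all hairpins tested, 14.7% were called higher and 19.1% lower in lungs, and 28.8% and 31.9% in culture, so these counts were near those of the series. Ftsjd2 (Cmtr1 in RefSeq) methylates the cap of messenger RNA. Its TRCN0000264861 was among the 5 highest shares in lungs: 4.42, 3.77 and 4.6% at day 0, 2.09, 3.44 and 3.37% in the mixed cultures, 4.49% in D and 9.61, 10.5 and 7.5% in lungs. Lungs lay above all other libraries, with 1.42 (SE 0.16, adjusted p = 0.00182) against day 0 and 1.21 (SE 0.37, adjusted p = 0.0286, 1.39 without D) against culture. The second of these calls was lost without lung A, lung B or any of the mixed cultures (adjusted p up to 0.103). The other hairpins of the gene were not called: TRCN0000264859, also abundant in lungs with 6.42, 7.73 and 6.5% after 9.57, 9.35 and 8.7% at day 0, gave -0.10 (SE 0.16) and TRCN0000264860 -2.14 (SE 1.27).

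Utp20, a component of the machinery that assembles the small ribosomal subunit, had 3 hairpins, and all lungs lay below all day 0 libraries for each, as they did for 19 of the pool's 52. TRCN0000341514 had 0.305, 0.253 and 0.592% at day 0, 0.0247, 0.0399 and 0.105% in the mixed cultures, 0.0981% in D and 0.0201, 0.00785 and 0.102% in lungs. TRCN0000341600 had 0.652, 0.595 and 0.868% at day 0 and 0.122, 0.0357 and 0.468% in lungs, and TRCN0000341529 0.305, 0.303 and 0.584% and 0.273, 0.0604 and 0.27%. Only the first was called in lungs, -3.49 (SE 1.05, adjusted p = 0.0462), a call lost without any 1 day 0 library or without lung A or B (adjusted p up to 0.143) and with edgeR. The other changes were -2.13 (SE 0.98, adjusted p = 0.143) and -0.88 (SE 0.74, adjusted p = 0.404). In culture TRCN0000341600 was at 0.21, 0.484 and 0.374% in the mixed cultures and 0.287% in D, and TRCN0000341529 at 0.168, 0.118 and 0.0836% in the mixed cultures and 0.101% in D. All cultures were below all day 0 libraries for the 3 hairpins, as for 22 of the 52, and 2 of the 3 hairpins were called lower there, -2.09 (SE 0.61, adjusted p = 0.0134, -2.28 without D) and -1.16 (SE 0.45, adjusted p = 0.0478, -1.03 without D). The first of these was lost without day 0 library D (adjusted p of 0.0686) or with 1 fit of all groups. The second was lost without any 1 day 0 library or without culture B, C or D (adjusted p up to 0.223), with edgeR and with 1 fit of all groups. None of the 3 was called in lungs against culture.

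Cnot2 is a subunit of the CCR4-NOT complex, which removes the poly(A) tails of messenger RNAs. TRCN0000375964 made up 0.38, 0.493 and 0.395% at day 0. It was at 0.00112, 0.0469 and 0.0123% in the mixed cultures, 0.0496% in D and 0.111, 0.0039 and 0.00201% in lungs, below day 0 in all 7 and spread widely among them. It had the largest falls of the pool in both comparisons, -5.11 (SE 1.53, adjusted p = 0.0457) in lungs and -4.37 (SE 1.14, adjusted p = 0.00822, -4.92 without D) in culture. The lung call was lost without any 1 day 0 library or without lung B (adjusted p up to 0.113) and with edgeR, whereas the culture call was kept throughout. The size of the lung fall was unsteady: -6.86 without lung A, -4.24 without lung D, -3.12 with edgeR and -3.33 with DESeq2. TRCN0000375965 against the same gene gave 0.14 (SE 0.50) in lungs and 0.70 (SE 0.89) in culture, neither called; without culture D it was called higher in culture, at 1.55 (adjusted p = 0.0158), opposite to the first hairpin.

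The symbol 2810432D09Rik belongs to Rpp25l, a protein related to a subunit of ribonuclease P. Its 4 hairpins had no call in lungs against day 0, with changes of 1.55, 0.46, -1.49 and -1.11. In culture TRCN0000264298 was lower with -2.12 (SE 0.58, adjusted p = 0.0103, -2.08 without D), and TRCN0000264297 and TRCN0000282981 were higher with 1.35 (SE 0.44, adjusted p = 0.0225, 1.03 without D) and 1.48 (SE 0.36, adjusted p = 0.00552, 1.59 without D). For TRCN0000264297, culture A (0.44%) lay below all day 0 libraries (0.689, 0.656 and 0.775%). Cultures B, C and D (1.45, 1.21 and 2.76%) lay above them. TRCN0000282981 also differed between lungs and culture: 0.0957, 0.0249 and 0.101% in lungs lay below both day 0 (0.176, 0.155 and 0.174%) and all cultures (0.21, 0.403 and 0.396% and, in D, 0.296%), with -2.63 (SE 0.83, adjusted p = 0.0333, -2.64 without D). That call was lost without lung B, culture B or culture C (adjusted p up to 0.096), and with plain shares or the deposited values. The culture call of TRCN0000264297 was lost without day 0 library B, culture B or culture C (adjusted p up to 0.0652), and with plain shares, the deposited values or 1 fit of all groups. That of TRCN0000282981 was also lost in each of these 3 fits, and that of TRCN0000264298 in 1 fit of all groups.

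The genes of protein modification (3 genes, 8 hairpins) had 1 hairpin called lower in lungs against day 0 and 2 called lower in lungs against culture, all of Zdhhc20, where 19.1% and 13.3% of all hairpins tested were called lower. Without culture D the count in lungs against culture was also 2. Zdhhc20 is a palmitoyltransferase that adds fatty acids to membrane proteins. It had 3 hairpins with all lungs below all day 0 libraries, a position shared by 19 of the pool's 52. TRCN0000328698 was at 4.38, 4.4 and 4.79% at day 0, 2.28, 3.12 and 2.42% in the mixed cultures, 2.67% in D and 0.426, 0.465 and 0.9% in lungs. Every lung sample lay below every culture and every day 0 library, and the mean day 0 share was 7.58 times that of lungs. The change was -2.69 (SE 0.38, adjusted p = 0.00413) against day 0 and -2.50 (SE 0.46, adjusted p = 0.00156, -2.47 without D) against culture, both kept without each library and in every alternative, while culture against day 0 gave -0.22 (SE 0.18, adjusted p = 0.3). TRCN0000328625 was at 2.73, 2.78 and 2.85% at day 0, 2.36, 2.21 and 1.99% in the mixed cultures, 2.12% in D and 1.42, 0.386 and 1.03% in lungs. It was not called against day 0 (-1.43, SE 0.55, adjusted p = 0.0928) and was lower in lungs than in culture, -1.68 (SE 0.49, adjusted p = 0.0239, -1.67 without D), a call lost without lung B, culture B or culture C (adjusted p up to 0.0624) and with the deposited values; without lung B the change was -1.11. TRCN0000328623 had 1.01, 0.981 and 1.37% at day 0, 0.648, 1.11 and 0.776% in the mixed cultures and 2.93% in D, and 0.856, 0.534 and 0.849% in lungs, with -0.28 (SE 0.33, adjusted p = 0.552) and no call in any comparison. None of the 3 was called in culture against day 0, although on unscaled shares all cultures of TRCN0000328698 and TRCN0000328625 also lay below all day 0 libraries, at 0.579 and 0.779 times the day 0 mean.

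Rhbdd1, a rhomboid protease of intracellular membranes, was 1 of the 2 genes whose hairpins were all above 0 in lungs against day 0, but none of the 3 was called. TRCN0000331447 had 0.159, 0.129 and 0.148% at day 0 and 0.403, 0.166 and 0.477% in lungs (1.45, SE 0.54, adjusted p = 0.0875), with no overlap. TRCN0000326224 had 0.397, 0.396 and 0.559% and 0.594, 0.731 and 0.445% (0.70, SE 0.28, adjusted p = 0.1), and TRCN0000326223 0.0197, 0.0126 and 0.0129% and 0.0209, 0.0115 and 0.0726% (1.13, SE 1.00, adjusted p = 0.42); both overlapped day 0. Culture held 0.216, 0.225 and 0.167% in the mixed cultures and 0.435% in D of TRCN0000326224, and 0.00394, 0.0164 and 0.00653% in the mixed cultures and 0.0161% in D of TRCN0000326223. The culture rise of TRCN0000331447, to 0.271, 0.137 and 0.265% in the mixed cultures and 0.242% in D, 1.18 (SE 0.44, adjusted p = 0.0414, 1.22 without D), was lost without any 1 day 0 library or without culture A or C (adjusted p up to 0.122), and with plain shares, the deposited values or 1 fit of all groups. Fbxo22, an F-box protein that selects substrates for ubiquitination, had an abundant hairpin, TRCN0000319962, with 9.04, 9.24 and 8.23% at day 0 and 4.53, 5.58 and 13.2% in lungs, where it overlapped day 0 (-0.03, SE 0.47, adjusted p = 0.973). In culture it was at 10.3, 9.39 and 11.2% in the mixed cultures and 12.4% in D, called higher with 0.86 (SE 0.24, adjusted p = 0.0115, 0.87 without D); the sign turned to -0.17 with the deposited values, and the call was lost with plain shares, without day 0 library D (adjusted p of 0.0617) and in 1 fit of all groups. TRCN0000320040 gave 0.37 (SE 0.66) in lungs and was not called in any comparison.

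Transporters (3 genes, 6 hairpins) had 1 hairpin called higher in lungs against day 0, where 14.7% of all hairpins tested were. It was TRCN0000444225 against Slc16a3, a monocarboxylate transporter that exports lactate, with 0.132, 0.0979 and 0.136% at day 0, 0.0158, 0.0583 and 0.142% in the mixed cultures, 0.115% in D and 0.469, 0.571 and 0.15% in lungs. All lungs were above all other libraries, lung D narrowly so. The change of 1.82 (SE 0.52, adjusted p = 0.0407) was lost without any 1 day 0 library or without lung A or B (adjusted p up to 0.113), and with plain shares, DESeq2 size factors, the deposited values or 1 fit of all groups. The second Slc16a3 hairpin, TRCN0000444671, was rare: 0.000763, 0.0019 and 0.00157% at day 0, 0.000476 and 0.000364% in cultures A and B, 0 reads in culture C, 0.00847% in D, 0.00135% in lung A, and 0 reads in lungs B and D, which allow shares of up to 7.5e-05% and 5.53e-05% (3 reads, counting error only).

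Abca12, a lipid transporter best known from the skin, and Slc4a10, a bicarbonate transporter best known from neurons, had calls in lungs against culture and none in lungs against day 0. TRCN0000419598 against Abca12 went from 7.03, 7.34 and 6.76% at day 0 to 15.5, 9.23 and 9.64% in the mixed cultures and 11.5% in D, and to 2.97, 1.14 and 5.96% in lungs. All lungs were below day 0 and all cultures above it. Culture was higher than day 0 with 1.24 (SE 0.30, adjusted p = 0.00518, 1.31 without D), lungs were lower than culture with -2.33 (SE 0.56, adjusted p = 0.00814, -2.30 without D), and the lung change of -1.05 (SE 0.65, adjusted p = 0.265) against day 0 was not called. Both calls were kept without each library; the deposited values ended both, and 1 fit of all groups ended the first. The second hairpin, TRCN0000442326, had 3.01 (SE 1.37, adjusted p = 0.141), with lungs at 1.5, 0.05 and 0.072% after 0.022, 0.0311 and 0.0292%, so that lung A stood far above the other two. TRCN0000351075 against Slc4a10 rose in culture, from 0.354, 0.343 and 0.412% to 0.34, 0.512 and 0.497% in the mixed cultures and 1.44% in D (1.26, SE 0.38, adjusted p = 0.0166, 0.91 without D), and TRCN0000351076 fell, from 1.49, 1.32 and 1.45% to 0.386, 0.612 and 0.627% and 0.565% (-0.83, SE 0.24, adjusted p = 0.0128, -0.77 without D). The rise was lost with plain shares, the deposited values and 1 fit of all groups, and the fall without day 0 library A (adjusted p of 0.0571) and in 1 fit of all groups. Lungs stood at 0.19, 0.137 and 0.371% and 1.49, 2.6 and 0.961%, so lungs against culture gave -1.77 (SE 0.55, adjusted p = 0.0301, -1.32 without D) and 1.24 (SE 0.42, adjusted p = 0.0434, 1.28 without D). Of these lung-culture calls the first was lost without lung A, lung B, or culture B, C or D (adjusted p up to 0.137), and with edgeR, plain shares, DESeq2 size factors and the deposited values. The second was kept only without lung D (adjusted p up to 0.174 without any other library).

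The remaining genes are grouped by single roles. Cad had an abundant hairpin at day 0, TRCN0000314234, that stood at 20.6, 16.9 and 16.7% in the mixed cultures and 7.11% in D. In lungs it was at 11.6, 3.15 and 8.79%, all below day 0, with -0.96 (SE 0.54, adjusted p = 0.226). Its change was 0.35 (SE 0.44, adjusted p = 0.518) in culture and -1.34 (SE 0.58, adjusted p = 0.113) in lungs against culture, neither called. Without culture D both were called, at 0.76 (adjusted p = 0.014) and -1.66 (adjusted p = 0.0147). Its second hairpin, TRCN0000317952, was at 1.59, 1.52 and 1.88% at day 0, 0.369, 0.493 and 0.594% in the mixed cultures, 0.925% in D and 1.12, 3.73 and 1.72% in lungs. It fell in culture, -0.99 (SE 0.27, adjusted p = 0.0109, -1.15 without D), a call lost in 1 fit of all groups, and was higher in lungs than in culture, 1.49 (SE 0.47, adjusted p = 0.0327, 1.75 without D), the latter lost without lung B, lung D, culture A or culture B (adjusted p up to 0.152). Rpa3, a subunit of the single-strand DNA-binding protein of replication, had 1 hairpin, TRCN0000313677, at 0.763, 0.788 and 1.24% at day 0 and 0.599, 0.131 and 0.299% in lungs. All its lungs and cultures lay below day 0, but -1.34 (SE 0.62) in lungs and -1.97 (SE 0.95) in culture were not called. Rab14, a GTPase of endosomal and Golgi traffic, had 1 hairpin, TRCN0000332372, with -0.51 (SE 0.20, adjusted p = 0.102).

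Ankrd17, an ankyrin repeat protein, was among the 3 genes whose hairpins were all below 0 in lungs against day 0, with Utp20 and Zdhhc20. TRCN0000304666 had 1.66, 1.94 and 2.04% at day 0, 0.762, 1.17 and 0.627% in the mixed cultures, 0.577% in D and 0.513, 0.188 and 0.688% in lungs. Lungs and cultures were all below day 0. The lung change of -1.89 (SE 0.57, adjusted p = 0.0463) was lost without day 0 library B or D or lung A (adjusted p up to 0.115) and with edgeR and stood at -1.25 without lung B, and the culture change of -0.74 (SE 0.29, adjusted p = 0.0478, -0.53 without D) without any 1 day 0 library or culture C (adjusted p up to 0.131), with edgeR, DESeq2 or 1 fit of all groups. TRCN0000304678 had 1.49, 1.48 and 1.68% at day 0, 1.1, 0.845 and 0.887% in the mixed cultures and 1.77% in D, and 0.338, 1.86 and 0.216% in lungs, where B alone exceeded day 0, with -1.27 (SE 0.72, adjusted p = 0.225).

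BC004004, a gene that carries its cDNA clone name, had the most abundant culture hairpin. TRCN0000249475 rose from 5.38, 5.66 and 5.03% at day 0 to the culture shares given above, with 2.47 (SE 0.32, adjusted p = 0.000101, 2.73 without D), and stood between the 2 in lungs, at 9.62, 7.07 and 7.58%. Its lungs were above day 0 (0.90, SE 0.21, adjusted p = 0.0228) and below every culture (-1.60, SE 0.44, adjusted p = 0.0154, -1.77 without D). The rise in culture was kept throughout and the difference from culture without each library. The rise in lungs was lost without day 0 library A or D or lung A or D (adjusted p up to 0.0884), and with plain shares, the deposited values or 1 fit of all groups. The hairpins TRCN0000249474 and TRCN0000249473 of this gene gave 0.12 (SE 0.23) and -0.48 (SE 0.42) in lungs and were not called in any comparison. Tnfrsf25, a death domain receptor of the TNF receptor family, had both hairpins above 0 in lungs without a call: TRCN0000421647 with 0.0311, 0.0241 and 0.0399% at day 0 and 0.489, 0.0748 and 0.00395% in lungs (1.08, SE 1.70, adjusted p = 0.657), and TRCN0000425440 with 0.0614, 0.0747 and 0.0535% and 0.116, 0.133 and 0.035% (0.70, SE 0.68, adjusted p = 0.464). In each, lung D lay below the day 0 range. In culture TRCN0000421647 was at 0.167, 0.0436 and 0.00863% in the mixed cultures and 0.0262% in D, without a call. TRCN0000425440 rose in culture, at 0.308, 0.533 and 1.59% in the mixed cultures and 0.0783% in D, with 3.16 (SE 0.91, adjusted p = 0.0134, 4.0 without D), a call lost without culture B (adjusted p of 0.0517). Lungs against culture gave -2.50 (SE 1.02, adjusted p = 0.0922) for it, not called, and -3.24 (adjusted p = 0.00727) without D, called lower.

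Culture against day 0 had 22 of 52 hairpins called, or 42.3%, against 60.6% of the 945 tested in all pools. Of these, 10 were higher and 12 lower, where 28.8% of all hairpins tested were called higher and 31.9% lower. The median change was 0.02 with TMM and -0.56 with plain shares, and the share of calls that were higher fell from 45.5% to 17.4% with plain shares and to 8.7% with the deposited values; edgeR gave 57.1%. There were 23 calls without culture D, 21 of them shared with the 22. Leaving out 1 library gave 14 (without day 0 library D) to 23 calls, and 11 of the 22 hairpins kept their call each time. Of these, 5 also kept it in every alternative fit: Arhgap21 TRCN0000252186, BC004004 TRCN0000249475, Cnot2 TRCN0000375964, Nfkbiz TRCN0000360678 and Pcdh18 TRCN0000340586. With all 3 groups in 1 fit only 9 calls were left.

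Lungs against culture, the direct comparison of the day 28 groups, had 14 of 52 hairpins called, or 26.9%, against 24.9% of the 889 tested in all pools. Of these, 7 were higher and 7 lower, where 11.6% of all hairpins tested were called higher and 13.3% lower. The share of calls that were higher was 50% with TMM, 66.7% with plain shares and 80% with the deposited values, and the median change was -0.14, 0.14 and 0.51. Without culture D there were 15 calls, of which 11 were among the 14. Only the Pxdn hairpin TRCN0000251359 and the Zdhhc20 hairpin TRCN0000328698 kept their call without each library and in every alternative fit. Counts were 5 without lung B, 6 without culture B, 7 without culture C, 9 without culture A, 10 without lung A and 17 without lung D.

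Set beside each other, lungs against day 0 and culture against day 0 called 2 hairpins higher in both and 6 lower in both, and no hairpin was called in opposite directions. These comparisons share the day 0 libraries. Of the 8 hairpins higher in lungs, 6 were not called in culture: those of Pxdn, Ftsjd2, Slc16a3 and Zim2 and both of Arhgap21. Of the 7 lower in lungs, the Zdhhc20 hairpin alone was not called in culture. The difference between the arms was tested by lungs against culture, and of these 7 hairpins it was called for those of Pxdn, Ftsjd2, Zim2 and Zdhhc20 and for TRCN0000252187 of Arhgap21. Without culture D it was also called for TRCN0000258194 of Arhgap21, and the joint counts of calls in lungs and culture against day 0 were again 2 higher in both, 6 lower in both and none opposed. In all, 30 hairpins were called in at least 1 comparison and 22 in none, or 31 and 21 without culture D. Of the 21 genes with at least 2 hairpins in the pool, 2 had all hairpins above 0 in lungs against day 0, 3 had all below 0, and 16 had hairpins of both signs.

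Another look at the same genes came from hairpins in other pools, which did not enter the fits of pool 19. Pools 11, 12 and 18 have day 0 and lung libraries of their own, but the cultures of pool 18 are the mixed cultures A, B and C used for pool 19. Of the 23 genes, 16 had 30 further hairpins in these pools. In lungs against day 0, 5 of these 30 were called higher, 6 lower and 19 not, near the 14.7% higher and 19.1% lower of all hairpins tested. For Pxdn, 1 pool 12 hairpin was lower with -3.45 (SE 0.28, adjusted p = 0.000138) and the other gave 0.70 (SE 0.26, not called), so the rise of the pool 19 hairpin was not seen in a call of another Pxdn hairpin. For Zim2, the 2 hairpins in pool 18 gave -0.01 (SE 0.21) and 0.02 (SE 0.30). For Pcdh18, the hairpin in pool 11 was higher with 0.82 (SE 0.18, adjusted p = 0.0199) and that in pool 12 gave 0.32 (SE 0.23). For Pcdhb6, 1 of 2 was higher with 0.94 (SE 0.26, adjusted p = 0.0228). For Dach2, TRCN0000422179 was lower in pool 19 and TRCN0000423706 was not called there (0.74, SE 0.49). The Dach2 hairpin in pool 11 was higher with 2.48 (SE 0.24, adjusted p = 0.00116) and that in pool 12 gave 0.72 (SE 0.29).

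The Cnot2 hairpin of pool 18 was lower in lungs, with -2.32 (SE 0.32, adjusted p = 0.00199). So was TRCN0000375964 in pool 19, whereas TRCN0000375965 there gave 0.14 (SE 0.50) and was not called. Rpa3 had 1 of 2 pool 12 hairpins lower in lungs, -2.53 (SE 0.30, adjusted p = 0.000383), and Rab14 had 1 of 2 lower, -1.59 (SE 0.37, adjusted p = 0.00919). Fbxo22 split in pool 12, with 1 hairpin higher (1.98, SE 0.25, adjusted p = 0.000442) and 1 lower (-1.89, SE 0.61, adjusted p = 0.0421). For Abca12, 1 of 2 in pool 12 was lower with -1.03 (SE 0.31, adjusted p = 0.0293), and for Slc4a10, 1 of 2 in pool 11 was higher with 0.54 (SE 0.13, adjusted p = 0.0248). The further hairpins of Ankrd17, Cad, Nfkbiz, Slc16a3 and Tnfrsf25 were not called in lungs against day 0. In culture against day 0, 9 of the 30 further hairpins were called higher, 11 lower and 10 not, where 28.8% of all hairpins tested were called higher and 31.9% lower. Nfkbiz repeated its split in culture: the pool 11 hairpins gave 1.72 (SE 0.13, adjusted p = 1.47e-26) and -1.74 (SE 0.44, adjusted p = 0.000387). Slc4a10 did so too in pool 11, with 1.55 (SE 0.14, adjusted p = 1.49e-21) and -0.50 (SE 0.17, adjusted p = 0.00854). Pcdh18, also split in culture in pool 19, had both further hairpins called higher (0.96 and 0.97), as did Dach2 (0.82 and 2.10). In the pool 11 culture fit limma's median prior degrees of freedom over the hairpins was infinite, so p-values there rest on the fitted variance trend. Arhgap21, BC004004, Ftsjd2, Rhbdd1, Utp20, Zdhhc20 and 2810432D09Rik had no hairpins in other pools.

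**Figure D4:**
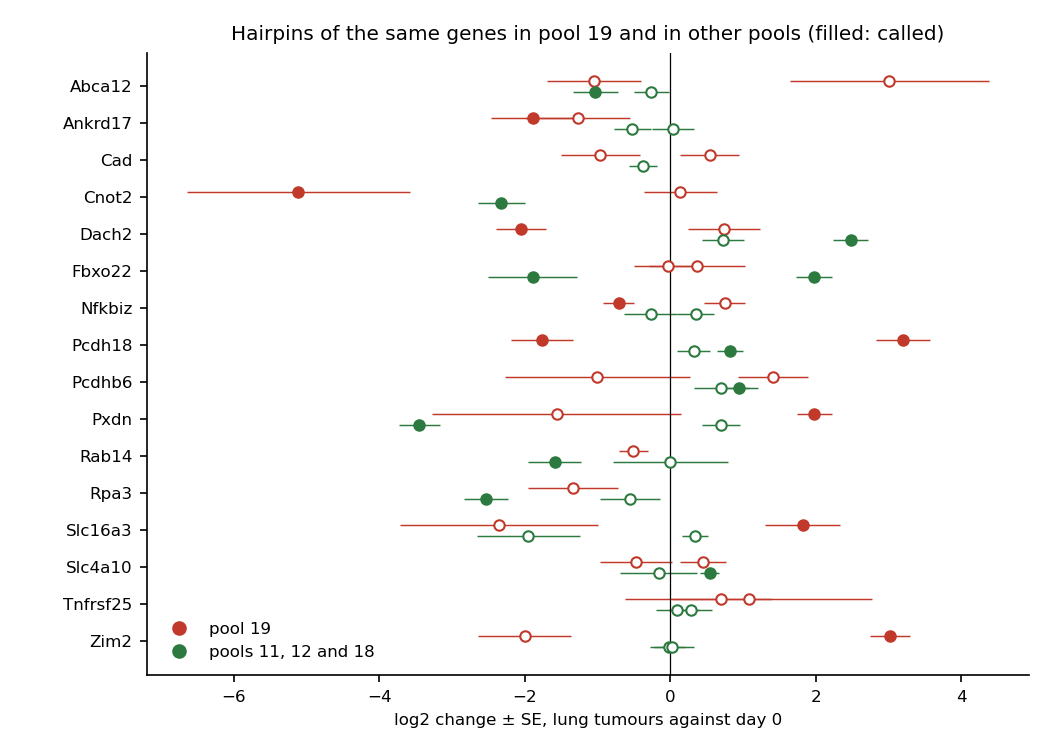
log2 change with its SE (bars) in lungs against day 0 for the 16 genes that have hairpins both in pool 19 (red) and in pools 11, 12 or 18 (green), 1 point per hairpin, filled where called. For most of these genes the points lie on both sides of 0. For Rpa3 all lie below 0, for Rab14 none lies above 0, and for Tnfrsf25 all lie above.

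Control hairpins were described and not tested. Their changes are given against the day 0 mean and relative to the median change of the targeting hairpins, in lungs and, because the mixed cultures hold the controls of both pools, in culture D alone. The hairpin against Cdkn1b, which encodes the cell cycle inhibitor p27, went from 6.74, 6.29 and 7.48 reads per 100 targeting reads at day 0 to 22.1, 19.7 and 21.7 in lungs, a change of 2.12 ± 0.12 (SD, n = 3), and 0.97 in culture D. Non-targeting-shRNA-1, which matches no mouse gene by design, was higher in every lung than in every day 0 library, going from 6.87, 6.45 and 6.77 to 9.85, 14.5 and 13.1, a change of 1.37 ± 0.26, and 1.35 in culture D. Non-targeting-shRNA-2 stood lower, at 3.354, 3.599 and 5.66 at day 0 and 0.349, 0.0699 and 0.812 in lungs, a change of -3.43 ± 1.82, and -2.47 in culture D. The non-targeting hairpins thus lay on opposite sides of the targeting median in lungs. GFP gave 0.20 ± 0.45 in lungs, which turned to -0.29 relative to the total of targeting reads. In culture D it gave 1.16, or 0.84 relative to that total. The hairpins against the human symbols MUC1 and PIK3CA gave -2.78 ± 1.25 and -1.14 ± 0.24 in lungs, and -2.67 and -1.48 in culture D. PIK3CA had 101 to 569 reads in each library of pool 19 alone. MUC1 stood at 0.0716, 0.0734 and 0.346 reads per 100 targeting reads in day 0 libraries A, B and D, and its mean change in lungs was -2.10 without day 0 library D.

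**Figure D5:**
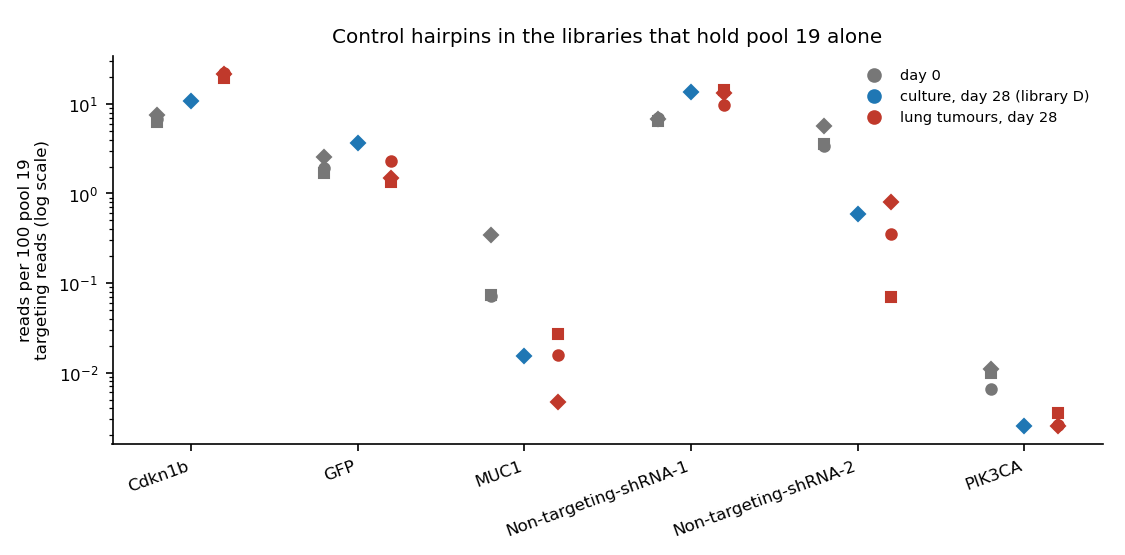
Reads of 6 control hairpins per 100 pool 19 targeting reads (log scale) in the libraries that hold pool 19 alone: day 0 (grey, n = 3), culture D (blue) and lungs (red, n = 3), with marker shapes for libraries as circle A, square B and diamond D. Cdkn1b and Non-targeting-shRNA-1 lie above day 0 in all lungs, and MUC1, Non-targeting-shRNA-2 and PIK3CA below it.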

How the data were processed

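Genomic DNA hairpins were amplified by a 2-step PCR, and the labels' protocols name no molecular identifiers, so reads are not independent molecules and intervals or limits from reads cover counting error only. Per the submitters' processing notes, BWA 0.5.9 was used; how hairpins were counted and scaled is not given in the sources used here. The deposited tables hold a normalised signal per hairpin, made by the authors. Each value was divided by the smallest of its library: 27241 of 27241 values came out whole within 0.01, which gives back the reads; a hairpin that a table does not list was set to 0 reads. 10 of 158 files hold no values, none of pool 19.

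Groups and library letters come from the labels, and all pool 19 files carry the same lane number. CPM of the pool's targeting reads with TMM factors (edgeR 4.0.16) and a pseudocount of 1 were fitted with limma 3.58.1 (R 4.3.3, variance trend, robust), each pool alone with the 2 groups compared, for hairpins with a mean of at least 10 reads; all 52 passed in each comparison. Each fit gave a hairpin a common variance for both groups, moderated over the pool, although day 0 libraries were more alike than lungs or cultures. For rare hairpins the log2 scale understates a change. The p-values were Benjamini-Hochberg adjusted over all pools, with a threshold of 0.05. edgeR's quasi-likelihood test and DESeq2 1.42.0 on the recovered reads, other scalings (plain shares, DESeq2 size factors, the deposited values), a pseudocount of 10, no filter, all groups in 1 fit, the letter as a block and leaving out each library were alternatives. For the control hairpins, leaving out each day 0 library was chosen after seeing the data. The fit was tested on simulated data.

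The labels and the file headers do not say that a letter marks a shared animal, infection or day. Every gene of the pool was named, and hairpins were described in every library where they were called in a lung comparison, were among the 5 highest shares in lungs, or belonged to genes whose hairpins all had 1 sign in lungs against day 0. The pool, its gene groups and these rules were chosen with earlier results of these data known. Symbols were matched to RefSeq (GRCm38.p6): 22 genes by accession and 1 by symbol. Hairpin sequences were not used here, and 2 of the 8 control hairpins are not reported here.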

Additional observations from a re-analysis of the deposited data

Results flagged for a closer look

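Among the 4 cultures, 6 of the 52 hairpin shares tested had 1 library far from the others (a gap beyond the critical value of Dixon's test; chance gives about 1 in 20 groups), and 5 of these were in culture D, each above the mixed cultures. Culture D held 0.5733% of Abca12 TRCN0000442326 against at most 0.0657% in the mixed cultures, and 1.104% of Arhgap21 TRCN0000252187 against at most 0.308%. It held 8.137% of Arhgap21 TRCN0000258194 against at most 2.51%, 0.008471% of Slc16a3 TRCN0000444671 against at most 0.000476%, and 1.44% of Slc4a10 TRCN0000351075 against at most 0.512%. The sixth was 2810432D09Rik TRCN0000264296 in culture B, at 0.02523% against 0.00485% in the next culture. With control hairpins counted, the effective number of hairpins in culture D was 23.70 against 17.98 in the next culture. The mixed cultures hold the controls of both pools, so these values are not like for like.

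Hairpins that did not belong to the library's pool were above their day 0 level in several libraries. Pool 18 hairpins, at most 0.22% of reads at day 0, made up 0.444% in culture D, 1.1% in lung A and 0.42% in lung D. Hairpins of pools other than 18 and 19, at most 0.00676% at day 0, made up 0.404, 0.142, 0.0868 and 0.0375% in cultures A, B, C and D, and 0.00886, 0.0125 and 0.00888% in lungs A, B and D. None of these reads entered the tests, which used the pool's own targeting hairpins.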

How the results depend on the processing

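Counts of calls stayed within 1.5 times the values in the report under every other test, scaling, pseudocount and filter. Outside that range were 9 calls for culture against day 0 with all groups in 1 fit, and 5 for lungs against culture with the replicate block; the cause was not tested. Leaving out each library in turn gave 8 to 21 calls for lungs against day 0, 14 to 23 for culture against day 0 and 5 to 17 for lungs against culture; each such fit has fewer samples. The replicate letter as a block gave 12, 21 and 5 calls, which held 12 of the 15, 16 of the 22 and 5 of the 14 called without it. Deviations of same-letter libraries were not alike for every letter (r in the order A, B and D of -0.08, 0.16 and 0.03 for lungs and day 0, -0.14, 0.52 and 0.39 for culture and day 0, -0.14, 0.27 and -0.12 for lungs and culture), and at least 1 letter in each comparison was under 0.1, so the letters were not taken to pair the samples. Among called hairpins and the controls reported, 2 values changed sign: Fbxo22 TRCN0000319962 in culture against day 0, at -0.17 with the deposited values, and the GFP control in lungs, at -0.29 relative to the total of targeting reads. The effective number of hairpins kept the direction of each difference with the inverse Simpson index and without each library. It also did so with controls included. There, comparisons with culture are not like for like, since the mixed cultures hold the controls of both pools. With 3 or 4 libraries per group, 1 library often decided a call, and hairpins under 0.01% of the pool's reads at day 0 had SEs above 0.7 in each comparison.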
